A study of Drosophila melanogaster with 8 samples.

Results

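Mitochondria make most of a cell's ATP by oxidative phosphorylation. Complexes I to IV of the inner membrane pass electrons from NADH and succinate to oxygen, and complexes I, III and IV pump protons. Complex V, the ATP synthase, uses the returning protons to make ATP. A few core subunits are encoded in the mitochondrial DNA and made by a ribosome inside the organelle. All other subunits, and every protein of that ribosome, are encoded in the nucleus and imported.

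The genes described here are the nuclear genes for subunits of these 5 complexes and for proteins of the mitochondrial ribosome that the authors' deposited table lists as changed at least 1.5-fold between BEAF-32 mutant and wildtype wing discs. They were selected on that measured difference and on their symbols, which begin with ND-, Sdh, UQCR-, COX4 to COX8, ATPsyn, mRpL or mRpS. The rule also admits Cyt-c1 and RFeSP, which the table does not name. It found 42 of the 3850 genes in the table, with 46 of its 4379 named transcripts. Of the 42 genes, 32 encode subunits of the respiratory complexes and ATP synthase and 10 encode mitochondrial ribosomal proteins. The table names 10 of them by their current symbol and 31 by an older symbol or a CG number that matched as a synonym in RefSeq. ATPsyn-b kept the name in the table, because that name is a synonym of 2 RefSeq genes.

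RNA from wing imaginal discs, larval epithelia from which the adult wings develop, was hybridised to 8 single-colour NimbleGen arrays. The larvae were Drosophila melanogaster in the third instar. The 4 wildtype arrays are labelled Wildtype OR, and the other 4 come from age-matched animals homozygous for a BEAF-32 mutation. BEAF-32 encodes a DNA-binding protein of chromatin boundaries. The strain is given as Orgon R for all 8 arrays, and neither the allele nor the stock is named. Loss of BEAF-32 and other differences of the mutant stock or stocks cannot be told apart. The design text of the series gives 2 biological and 2 experimental replicates. The labels do not say which number of an array's title marks the biological ones. How many animals gave each RNA sample, and whether replicates came from separate dissections, is not stated. A p-value here is set against the spread of these RNA samples alone, which may be technical.

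Every array gave a log2 level for 16637 transcripts, with array medians of 9.36 to 9.43 and a floor at 6.83 to 6.90. Titles carry a pair of numbers, and arrays of 1 genotype that share the first number correlated at 0.9977 to 0.9986 across transcripts. Wildtype arrays with different first numbers correlated at 0.9662 to 0.970 and mutant arrays at 0.9852 to 0.987. Arrays with the same first number were therefore averaged into 1 replicate, and means are given ± SD with n = 2. The first and second values quoted for a genotype are the arrays of replicate 1 and the other two those of replicate 2. The wildtype replicates thus stood further apart than the mutant replicates, which bears on the results below. BEAF-32 itself read 10.09, 11.94, 10.28 and 10.15 on the wildtype arrays and 8.49, 8.47, 8.40 and 8.41 on the mutant arrays, a difference of -2.17 (limma, adjusted p = 0.034). Its wildtype array 1_2 stood above the other wildtype arrays, and the genotypes did not overlap. Differences are mutant minus wildtype, opposite to the wildtype over mutant ratio of the deposited table. A level depends on the probes of its transcript, so levels are compared between arrays and not between genes.

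All 32 listed genes of the respiratory complexes and 9 of the 10 listed mitochondrial ribosome genes were lower in the mutant. The median difference over the 42 genes was -0.88 on the log2 scale, a 1.84-fold lower level, and the middle of the distribution ran from -0.99 to -0.66 at its quartiles. ATPsynG, a membrane subunit of ATP synthase, stood lowest at -1.40. The exception was mRpL54, a protein of the large ribosome subunit, at 0.67. In RNA from whole discs, fewer cells of a type and less RNA per cell cannot be told apart. Among all 3850 listed genes 1909, or 49.58%, were lower in the mutant, and those 1909 had a median difference of -0.92, close to that of the genes described here.

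The size of the differences was set by the selection, but the share of genes that passed it can be set against the genome. RefSeq holds 163 genes whose symbols meet the rule, and 42 of them, or 25.77%, were listed. The rule goes by symbol alone, so these may include genes that are not subunits, such as an assembly factor gene whose symbol begins with Sdh. Of 13962 protein-coding genes 3533, or 25.3%, were listed under a symbol that could be matched. The whole set was therefore listed about as often as other genes. ATPsyn-b counts among the 42 but not among the 3533, because its name was not matched to a single gene. The share ran from 50% for complex IV (8 of 16 genes) and 46.67% for complex V (7 of 15) through 32.5% for complex I (13 of 40) and 27.27% for complex III (3 of 11) to 12.5% for complex II (1 of 8). Of the mitochondrial ribosome genes 14.89% of the large subunit (7 of 47) and 11.54% of the small subunit (3 of 26) were listed. A gene that was not listed may have differed by less than 1.5-fold or may lack a probe set on the array. Drosophila has second copies of many of these genes, marked by an L at the end of the symbol, and 1 of 20 such copies was listed, COX4L, against 41 of the other 143 genes. Whether the probes separate such copies was not tested.

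**Figure D1:**
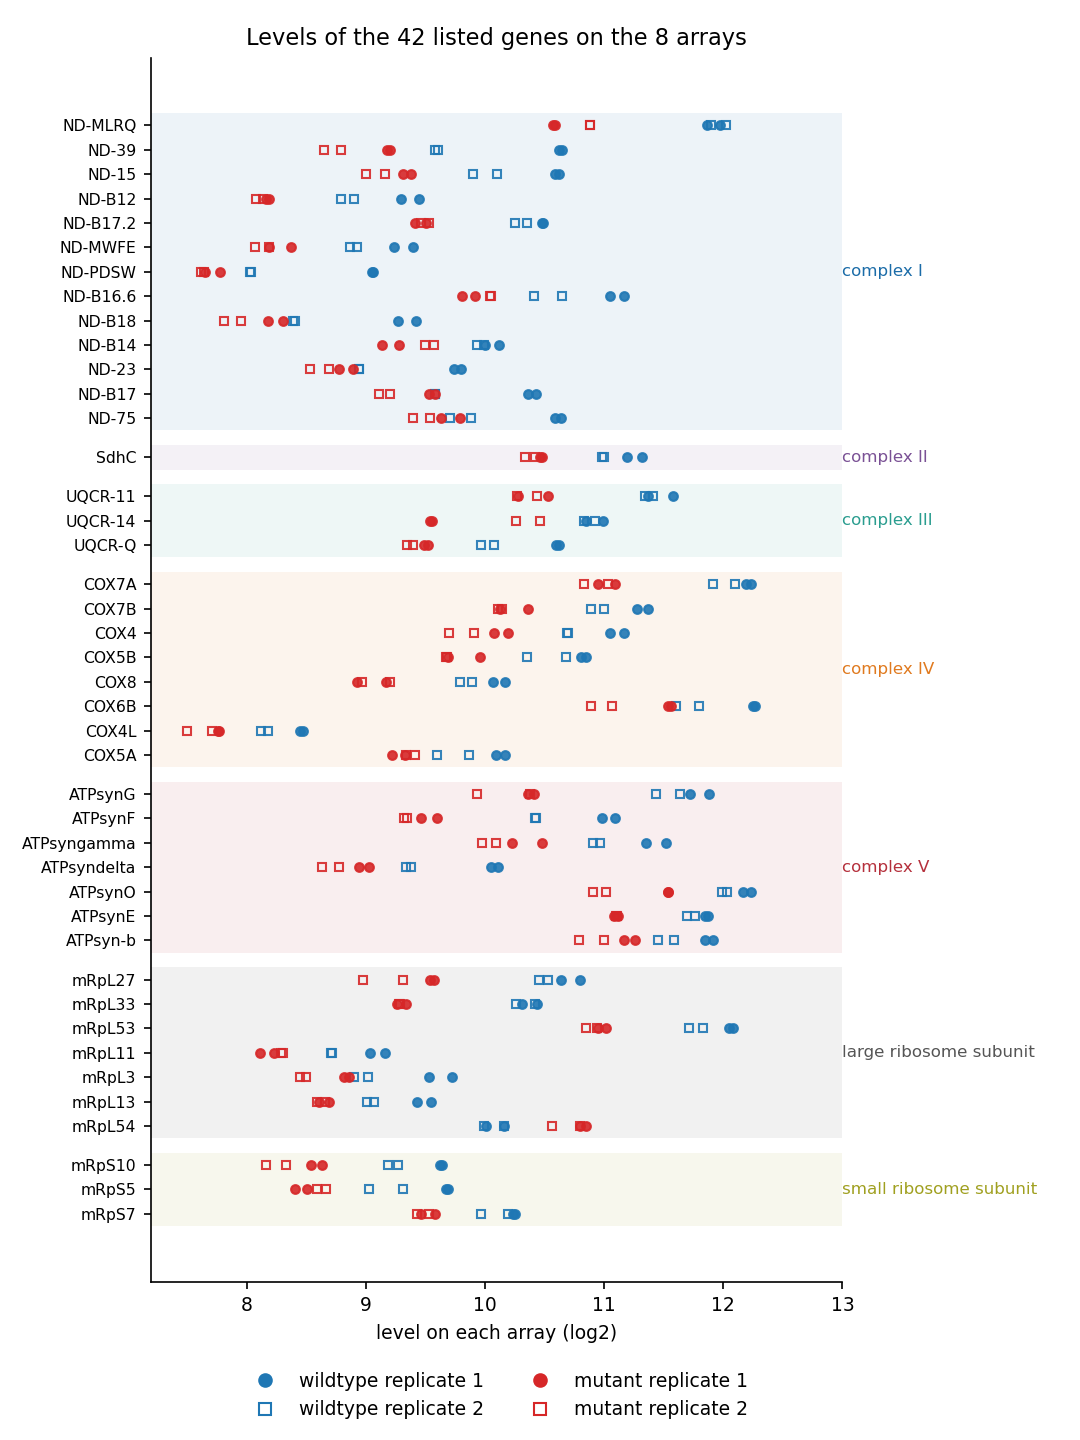
Level of each of the 42 listed genes (log2, horizontal axis) on every array, with the genes in rows by complex and ribosome subunit. Blue marks are wildtype and red marks mutant arrays, circles are replicate 1 and open squares replicate 2; mutant arrays lie to the left in every row but those of mRpL54, where they lie to the right, and of ND-B17 and ND-75, where the genotypes overlap, and the wildtype circles lie to the right of the wildtype squares in most rows.

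On each array the median level of the 42 genes gave the same picture. It was 10.61, 10.59, 9.98 and 10.17 on the wildtype arrays and 9.52, 9.54, 9.41 and 9.40 on the mutant arrays. The wildtype arrays of replicate 1 stood highest, those of replicate 2 lay between, and the mutant arrays were lowest and close together. The median over all features moved little by comparison, between 9.32 and 9.40. For 39 of the 42 genes the highest mutant array was under the lowest wildtype array, and for mRpL54, 1 gene, the order was turned round, where 23.6% of all features lay below and 26.1% above. Only ND-B17 and ND-75 overlapped between genotypes. By limma, fitted over 16108 features, 9 of the 42 passed at an adjusted p under 0.05 as lower, namely ND-MLRQ, ND-B17.2, UQCR-11, COX7A, COX8, ATPsynG, mRpL27, mRpL33 and mRpL53. Of all features 4.46% passed as lower and 2.79% as higher. Because the same contrast selected the genes, these counts describe them and nothing is read from the comparison with the background. None of the 42 passed as higher. At an unadjusted p under 0.05 by limma the counts were 34 lower and 1 higher. Of all 16108 features 4394 were under that limit in either direction.

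The number that passed depended on single replicates, over all features as well as among the genes described here. In a fit without 1 replicate the lone sample of a genotype is assumed to vary like the pair of the other. The median difference moved less, from -0.64 without wildtype replicate 1 to -1.09 without wildtype replicate 2. It was -0.96 without mutant replicate 1 and -0.83 without mutant replicate 2.

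Complex I, the NADH dehydrogenase, holds a core of catalytic subunits shared with bacteria and many accessory subunits around it. Its 13 listed genes had a median difference of -0.87 and ranged from -1.20 to -0.62. The lowest was ND-MLRQ, named for a small subunit first assigned to complex I and in mammals later placed with complex IV. It read 11.86, 11.97, 11.90 and 12.02 on the wildtype arrays and 10.57, 10.59, 10.88 and 10.88 on the mutant arrays, a difference of -1.20 between 11.94 ± 0.03 and 10.73 ± 0.21. The wildtype arrays were close to each other, and the arrays of mutant replicate 2 stood above those of mutant replicate 1. ND-MLRQ was the only one of the 42 genes in which wildtype replicate 1 was below replicate 2.

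ND-39, an accessory subunit near the junction of the complex's arms, showed the opposite arrangement. Its levels were 10.65, 10.62, 9.61 and 9.58 in wildtype and 9.18, 9.20, 8.79 and 8.65 in the mutant, with a difference of -1.16. Wildtype replicate 1 stood 1.04 above replicate 2, so that the difference was -1.68 against the former and -0.64 against the latter. The accessory subunit gene ND-15 followed at -1.09, with 10.62, 10.59, 9.90 and 10.10 in wildtype and 9.38, 9.31, 9.16 and 9.0 in the mutant. For both genes every mutant array was below every wildtype array, and within each genotype replicate 1 was the higher replicate.

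ND-B17.2, an accessory subunit, had close replicates and passed limma, with 10.49, 10.48, 10.25 and 10.35 in wildtype and 9.51, 9.41, 9.46 and 9.53 in the mutant, a difference of -0.91. The difference was several times the wildtype spread of 0.18. ND-B12 differed by -0.96, ND-MWFE by -0.91, ND-PDSW by -0.87, ND-B16.6 by -0.86, ND-B18 by -0.81 and ND-B14 by -0.64, all of them accessory subunits. ND-PDSW had wildtype levels of 9.06, 9.05, 8.04 and 8.03 against mutant levels of 7.78, 7.65, 7.64 and 7.62. Its wildtype replicates thus differed by 1.02, more than the genotypes did, and the mutant levels lay near the lower end of the array's range.

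Of 7 nuclear genes for core subunits of complex I, 2 were listed, and both had small differences. ND-75 encodes the subunit with the chain of iron-sulphur clusters that receives electrons from the flavin, and ND-23 another iron-sulphur subunit. ND-75 read 10.64, 10.59, 9.88 and 9.71 in wildtype and 9.79, 9.63, 9.54 and 9.40 in the mutant, a difference of -0.62. The arrays of mutant replicate 1 reached into the range of wildtype replicate 2, and the difference against that replicate alone was -0.20. ND-23 stood at -0.63 overall and at -0.22 against wildtype replicate 2, with 9.80, 9.74, 8.94 and 8.94 in wildtype and 8.78, 8.89, 8.53 and 8.69 in the mutant. The other 11 of 33 complex I genes had a median difference of -0.91 and ranged from -1.20 to -0.63, a grouping made after the values were seen.

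ND-B17, an accessory subunit, was listed with 2 transcripts. The transcript with the higher mean read 10.36, 10.43, 9.58 and 9.58 in wildtype and 9.53, 9.58, 9.11 and 9.20 in the mutant, and differed by -0.63. Here mutant array 1_2 reached the level of wildtype replicate 2. The other transcript differed by -0.61 and did not overlap, with 8.60, 8.34, 7.55 and 7.57 in wildtype and 7.45, 7.38, 7.39 and 7.39 in the mutant. Those of wildtype replicate 2 and of the mutant lay near the lower end of the array's range.

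Complex II, succinate dehydrogenase, links the citric acid cycle to the respiratory chain and is encoded wholly in the nucleus. Only SdhC, its membrane anchor subunit, was listed. SdhC read 11.32, 11.19, 11 and 10.98 in wildtype and 10.48, 10.46, 10.34 and 10.42 in the mutant, a difference of -0.70 between 11.12 ± 0.19 and 10.43 ± 0.06. The genotypes were apart by more than the spread of either.

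Complex III passes electrons from ubiquinol to cytochrome c, and 3 of its small accessory subunits were listed. UQCR-11 read 11.37, 11.58, 11.34 and 11.41 in wildtype and 10.28, 10.53, 10.44 and 10.27 in the mutant, a difference of -1.05. Its replicates differed by 0.10 in wildtype and 0.05 in the mutant, which made it one of the tightest genes described here. UQCR-14 was the gene with the widest mutant replicates. Its wildtype levels were 10.99, 10.85, 10.83 and 10.92, and its mutant levels 9.54 and 9.56 in replicate 1 against 10.46 and 10.26 in replicate 2. The difference was -0.95, but mutant replicate 2 stood 0.81 above mutant replicate 1. UQCR-Q differed by -0.88, with 10.60, 10.62, 9.97 and 10.08 in wildtype and 9.49, 9.52, 9.40 and 9.35 in the mutant.

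Complex IV, cytochrome c oxidase, has its catalytic subunits encoded in mitochondrial DNA, and all 8 listed genes encode the smaller nuclear subunits around them. All 8 lay below wildtype without overlap, with a median of -0.92 and a range of -1.13 to -0.61. COX7A had the lowest difference, with 12.19, 12.23, 11.91 and 12.10 in wildtype and 11.09, 10.95, 10.83 and 11.03 in the mutant. The genotypes did not overlap, and the replicates of each were close. COX7B followed at -0.95, with 11.37, 11.28, 10.89 and 11 against 10.13, 10.36, 10.14 and 10.11. COX4 stood at -0.93, with 11.17, 11.05, 10.70 and 10.69 against 10.08, 10.19, 9.91 and 9.70. In both, wildtype replicate 1 was the higher, by 0.38 and 0.41.

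COX8 passed limma at a difference of -0.91, with 10.17, 10.07, 9.79 and 9.89 in wildtype and 8.93, 9.17, 8.97 and 9.20 in the mutant. COX5B differed by -0.92 and COX6B by -0.72. The copy COX4L differed by -0.62, and its levels of 8.47, 8.45, 8.12 and 8.18 in wildtype and 7.76, 7.77, 7.71 and 7.5 in the mutant did not overlap. Its mutant levels lay near the lower end of the array's range. Leaving COX4L out did not move the median of the 42 genes from -0.88. COX5A lay nearest the 1.5-fold limit, at 1.524-fold in the authors' deposited table. It read 10.17, 10.09, 9.87 and 9.6 in wildtype and 9.22, 9.33, 9.34 and 9.41 in the mutant. In that table the next genes inside the limit were ND-B17 at 1.526-fold, by its lower transcript, and ND-75 at 1.532-fold. Of the transcripts that the table does not name, the farthest apart differed by 1.543-fold and 1.521-fold on the 8 arrays, and no other passed 1.5-fold.

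Complex V consists of a membrane rotor, a catalytic head and the stalks that join them. Its 7 listed genes had a median of -0.88 and included the 2 lowest differences of the set. ATPsynG and ATPsynF encode small subunits of the membrane part. ATPsynG read 11.88, 11.72, 11.44 and 11.64 in wildtype and 10.36, 10.41, 10.38 and 9.93 in the mutant, a difference of -1.40 between 11.67 ± 0.18 and 10.27 ± 0.17. ATPsynF read 11.09, 10.98, 10.43 and 10.42 against 9.6, 9.46, 9.35 and 9.32, a difference of -1.30. In both genes the highest mutant array lay well below the lowest wildtype array, but the replicates of ATPsynF differed by 0.61 in wildtype and it did not pass limma.

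ATPsyngamma, the shaft that turns inside the head, differed by -0.99, with 11.52, 11.35, 10.97 and 10.91 in wildtype and 10.48, 10.23, 10.09 and 9.98 in the mutant. ATPsyndelta, a further part of the rotor stalk, differed by -0.88 and ATPsynE, another small membrane subunit, by -0.69. For all 3 the genotypes were apart on every array. ATPsynE had the closest mutant arrays of complex V, at 11.12, 11.08, 11.11 and 11.10.

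ATPsynO and ATPsyn-b, both named for parts of the outer stalk that holds the head still, were listed with 2 transcripts each. The transcripts of ATPsynO differed by -0.85 and -0.77. The first read 12.23, 12.17, 12.03 and 11.99 in wildtype and 11.54, 11.54, 11.02 and 10.91 in the mutant. Both ATPsyn-b transcripts differed by -0.65, although on separate levels, the higher at 11.91, 11.85, 11.45 and 11.59 in wildtype and 11.17, 11.26, 11 and 10.79 in the mutant. The lower transcript read 8.85, 8.65, 7.82 and 7.8 against 7.73, 7.70, 7.54 and 7.55, and its mutant levels lay near the lower end of the array's range. No array overlapped between genotypes in these transcripts, and ATPsyn-b had the smallest difference of complex V.

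The large subunit of the mitochondrial ribosome, which joins the amino acids, had 7 listed genes with a median of -0.67 and the widest range of any group, from -1.25 to 0.67. Its 3 lowest genes all passed limma. mRpL27 read 10.64, 10.80, 10.53 and 10.45 in wildtype and 9.54, 9.57, 8.98 and 9.31 in the mutant, a difference of -1.25. mRpL33 read 10.31, 10.44, 10.26 and 10.42 against 9.26, 9.34, 9.29 and 9.28, a difference of -1.07. mRpL53 read 12.05, 12.08, 11.71 and 11.83 against 11.02, 10.95, 10.85 and 10.94, a difference of -0.98. The replicate means of mRpL33 differed by only 0.04 in wildtype and 0.01 in the mutant while those of mRpL27 differed by 0.23 and 0.41.

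mRpL11 differed by -0.67, mRpL3 by -0.64 and mRpL13 by -0.62. For mRpL13 the levels were 9.55, 9.43, 9.07 and 9.01 in wildtype and 8.61, 8.69, 8.66 and 8.59 in the mutant. In mRpL13 the mutant arrays were close together, and in mRpL3 the gap of 0.67 between wildtype replicates exceeded the difference.

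mRpL54 was the single gene that stood higher in the mutant. It read 10.01, 10.16, 9.99 and 10.16 in wildtype and 10.80, 10.85, 10.56 and 10.80 in the mutant, a difference of 0.67 between 10.08 ± 0.00 and 10.75 ± 0.10. All mutant arrays were above all wildtype arrays, and the wildtype replicates had equal means to 2 decimals. It did not pass limma with Benjamini-Hochberg adjustment. With arrays quantile normalized mRpL54 passed as higher, as did 621 of the 16108 features. It also passed with arrays averaged by the second number and with 8 arrays as separate samples, where 6893 and 3935 features passed as higher. Those 2 settings treat repeat arrays as independent. The difference was 0.67 against either wildtype replicate.

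The small subunit, which reads the messenger RNA, had 3 listed genes with a median of -0.88. mRpS10 was listed with 2 transcripts at -1.01 and -0.99, the first with 9.64, 9.62, 9.19 and 9.27 in wildtype and 8.63, 8.54, 8.16 and 8.33 in the mutant. mRpS5 differed by -0.88, with 9.67, 9.69, 9.03 and 9.31 against 8.41, 8.51, 8.59 and 8.67. mRpS7 differed by -0.66, with 10.24, 10.25, 9.97 and 10.19 against 9.46, 9.58, 9.43 and 9.53. No array of 1 genotype entered the range of the other in these genes, and mRpS7 had the closest replicates.

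The wildtype replicates differed in the same direction for nearly the whole set. The selection used their mean, so a gene could be listed because replicate 1 stood high. ND-75, for example, differed by -0.20 from wildtype replicate 2 alone, less than the limit of 0.585 on the log2 scale. The counts that follow are therefore partly set by the selection. Wildtype replicate 1 stood above replicate 2 in 41 of the 42 genes, by a median of 0.39. Over all features it was higher in 53.41%, with a median of 0.03, and among the 1909 listed genes lower in the mutant in 76.17%, with a median of 0.23. The median was 0.60 in complex I, 0.35 in complex IV, 0.36 in complex V and 0.34 in the mitochondrial ribosome, and 15 of the 42 genes had wildtype replicates more than 0.5 apart. The mutant replicates differed less, with replicate 1 higher in 32 of 42 by a median of 0.14. Members of these complexes are not independent of each other, and no test was made of these counts.

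The difference between genotypes exceeded the gap between wildtype replicates in 36 of the 42 genes, or 85.71%. The share was 82.52% of all listed genes and 91.67% of those lower in the mutant. The 6 that did not exceed it were ND-PDSW, ND-B18, ND-23, ND-B17, ND-75 and mRpL3, so that 5 of the 6 belong to complex I. Against wildtype replicate 1 the median difference was -1.09 and against replicate 2 it was -0.64. Every one of the 41 lower genes was below both wildtype replicates, the smallest difference being that of ND-75 at -0.20.

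**Figure D2:**
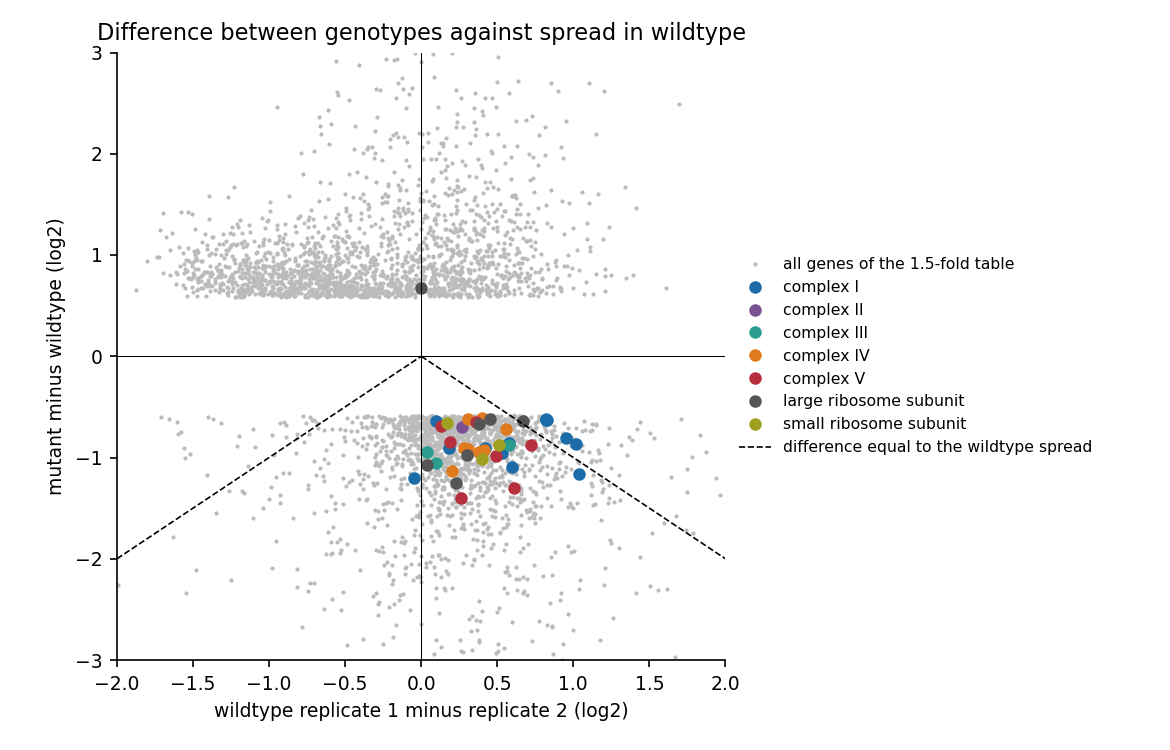
Mutant minus wildtype (log2, vertical) against wildtype replicate 1 minus replicate 2 (log2, horizontal) for the 42 genes, coloured by complex, over all 3850 listed genes in grey, of which 107 lie outside the axes. Points above the dashed lines in the lower part have a genotype difference smaller than the gap between wildtype replicates; the 6 genes there lie at the right, and 41 of the 42 lie to the right of 0 on the horizontal axis or on it.

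**Figure D3:**
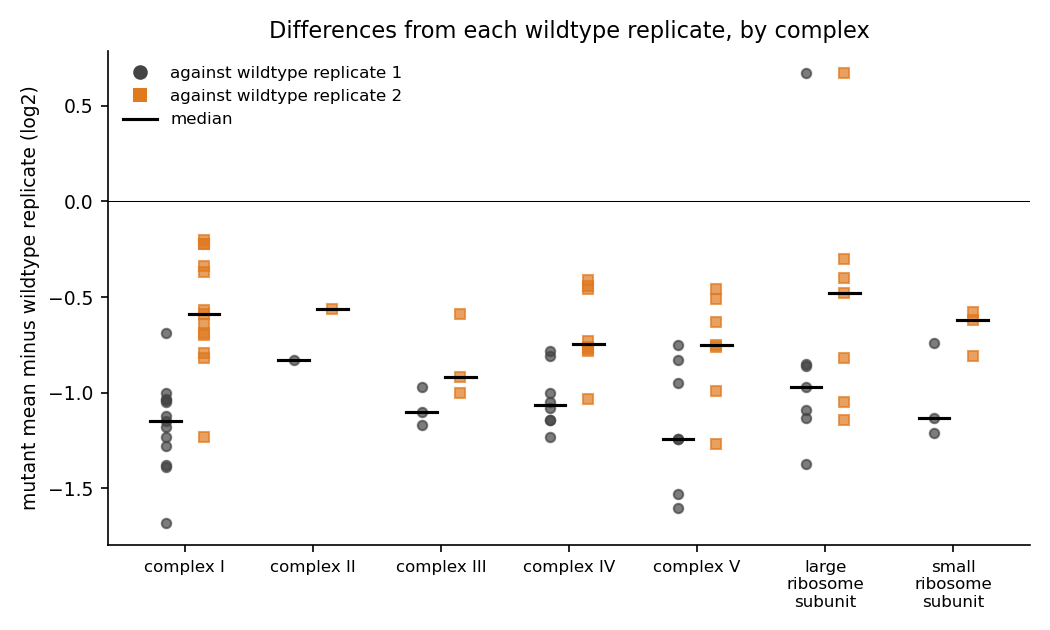
Mutant mean minus wildtype replicate 1 (circles) and minus wildtype replicate 2 (squares) for each of the 42 genes (log2, vertical), by complex and ribosome subunit, with the median as a bar. Medians against replicate 1 run from -0.83 to -1.24 and those against replicate 2 from -0.48 to -0.92, and the only values above 0 are those of mRpL54.

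The genes were spread over the chromosome arms. Of the rule's genes in RefSeq, 8 of 24 on X, 10 of 29 on 2L, 7 of 29 on 2R, 7 of 38 on 3L and 9 of 41 on 3R were listed. All were lower in the mutant but mRpL54 on 2R. No 2 of the 41 genes that could be placed were next to each other in the order of protein-coding genes. A neighbour of 16 of the 41 placed genes was listed, or 39.02%, against 47.01% of 3529 listed genes placed in the same way. COX8 lay between Rpn10, a proteasome subunit gene at -1.43, and VhaM9.7-b, a proton pump subunit gene at -0.80, and both neighbours fell. Beside ND-B16.6 lay kdn, the citrate synthase gene, at -0.90, and beside mRpL54 lay Cht8 at 0.70. ND-15 lay beside Sam-S, which rose by 1.02.

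Symbols outside the rule belong to the same complexes or carry electrons between them. Of 9 such genes on a list, 5 were named in the table and all 5 were lower, with 0 passing limma and 5 at an unadjusted p under 0.05. ox, a complex III subunit gene, differed by -0.96, levy and cype, complex IV subunit genes, by -0.99 and -0.74, and sun, the gene of the epsilon subunit of ATP synthase, by -0.74. Cyt-c-d, the cytochrome c gene used in the testis, differed by -1.52. It read 10.16, 10.22, 9.53 and 9.42 in wildtype and 8.35, 8.33, 8.31 and 8.25 in the mutant, with no overlap. Testis and male germline markers were lower too, 4 of 10 being listed and 4 of those lower, and 3 fell. Their summed level ran from 12.33 to 12.79 in wildtype and from 10.50 to 10.72 in the mutant. The part of male tissue in these results was not tested.

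Subunits encoded in the mitochondrial DNA were also named in the table, 4 of them, all of complex I and looked up after their values were seen. mt:ND3 fell by 2.39, with 10.38, 10.49, 10.01 and 10.67 in wildtype and 7.64, 7.58, 8.42 and 8.38 in the mutant. mt:ND5 fell by 1.26, with 12.06, 12.34, 12.14 and 12.45 against 10.72, 10.85, 11.20 and 11.17. mt:ND4 differed by -0.60, and so did mt:ND2, whose mutant levels of 6.86 to 6.98 lay at the floor of the arrays. Wildtype replicate 1 minus replicate 2 was -0.11 in mt:ND4, -0.09 in mt:ND5, 0.09 in mt:ND3 and 0.66 in mt:ND2. In all 4 the genotypes did not overlap.

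Nuclear-encoded subunits are brought into the organelle by import machinery in both membranes. Of 28 genes for protein import and chaperones 6 were listed, all 6 lower, and 3 fell: Tim17b (-1.18), a channel subunit of the inner membrane, Tim9a (-1.11), a small chaperone of the space between the membranes, and mge (-1.05), a receptor subunit of the outer membrane. Tim17b read 12.16, 12.28, 12.16 and 12.40 in wildtype and 10.90, 10.89, 11.42 and 11.05 in the mutant. Of 22 genes for pyruvate dehydrogenase and the citric acid cycle 6 were listed, 5 lower and 1 higher. mAcon2, an aconitase gene, fell (-0.70), while kdn stood at -0.90 and ScsbetaG, a succinyl-CoA ligase gene, at -0.80 without passing. Pdha, a pyruvate dehydrogenase subunit gene, stood at 1.41 without passing, with mutant levels of 11.72, 11.80, 11.31 and 10.72 over wildtype levels of 9.92 to 10.08.

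Carriers of the inner membrane and porins were split. Of 26 genes 10 were listed, 5 lower and 5 higher. Ant2, which exchanges ADP for ATP, stood at -1.48 and colt, the carnitine carrier gene, at -1.21, both without passing and both with wildtype replicates over 0.5 apart. porin, the channel of the outer membrane, fell by 0.97 and Mpc1, a pyruvate carrier subunit gene, by 0.77. Shawn (1.21) and Dic1 (1.13), both carrier genes, rose, and Tpc1, a thiamine pyrophosphate carrier gene, stood at 1.27 without passing. Of 26 genes for upkeep and expression of the mitochondrial DNA 5 were listed, 4 higher and 1 lower, and 1 of these passed. mIF2, a translation initiation factor gene, rose (0.83), PolrMT, the mitochondrial RNA polymerase gene, stood at 0.93, and mEFTs, an elongation factor gene, at -0.90.

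**Figure D4:**
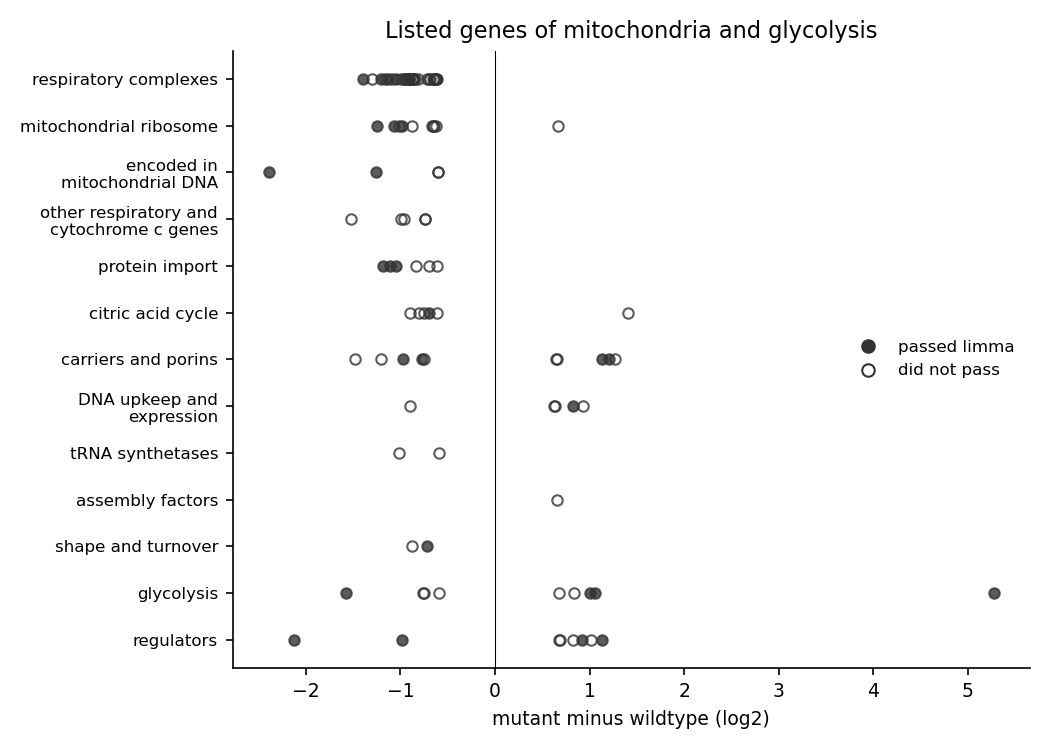
Mutant minus wildtype (log2, horizontal) for each listed gene of the respiratory complexes, the mitochondrial ribosome and the other mitochondrial and glycolytic lists, 1 row per list. Filled points passed limma at an adjusted p under 0.05 and open points did not; the first rows lie left of 0 but for mRpL54, carriers lie on both sides, and Ldh stands alone at 5.27.

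Glycolysis makes ATP in the cytoplasm without oxygen, and lactate dehydrogenase turns its product into lactate. Of 20 glycolysis and lactate genes 8 were listed under 9 identifiers, 4 identifiers lower and 5 higher. Ldh rose by 5.27, a 38.6-fold higher level, with 8.47, 8.36, 8.25 and 8.22 in wildtype and 13.77, 13.70, 13.46 and 13.45 in the mutant. Hex-A (1.06), a hexokinase gene, and Gpo1 (1.0), a mitochondrial glycerol phosphate oxidase gene, rose. Glut1, a glucose transporter gene, fell by 1.58, and its second identifier stood at -0.59. PyK, the pyruvate kinase gene, stood at 0.84 and Tpi, triose phosphate isomerase, at -0.75 without passing.

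Of 15 regulators of mitochondrial genes 8 were listed, 2 lower and 6 higher. ewg, the fly relative of mammalian nuclear respiratory factor, a transcription factor for genes of oxidative phosphorylation in mammals, fell by 2.12. It read 12.36, 12.31, 11.89 and 11.66 in wildtype and 9.92, 9.82, 10.07 and 9.92 in the mutant, and its 7 listed transcripts lay between -2.12 and -1.72. The genotypes were apart in all 7, and in each of them both arrays of wildtype replicate 1 read above those of replicate 2. maf-S, a partner of stress-response factors, fell by 0.98. Myc, a driver of growth and ribosome production, rose by 1.13 and S6k, a kinase of the TOR pathway, by 0.92. For cnc, a stress-response factor gene, the only listed identifier was CG13826, matched as a synonym. That identifier stood at 1.01 without passing, with wildtype replicate 1 minus replicate 2 at -0.78. sima, the hypoxia-inducible factor gene, stood at 0.83 and foxo at 0.68, without passing. Hph, the oxygen-dependent enzyme that marks sima for destruction, stood at 0.69 in its main transcript and at 2.63 in the other, which read 9.12, 9.13, 9.33 and 9.45 in wildtype and 12.01, 11.88, 11.79 and 11.88 in the mutant.

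**Figure D5:**
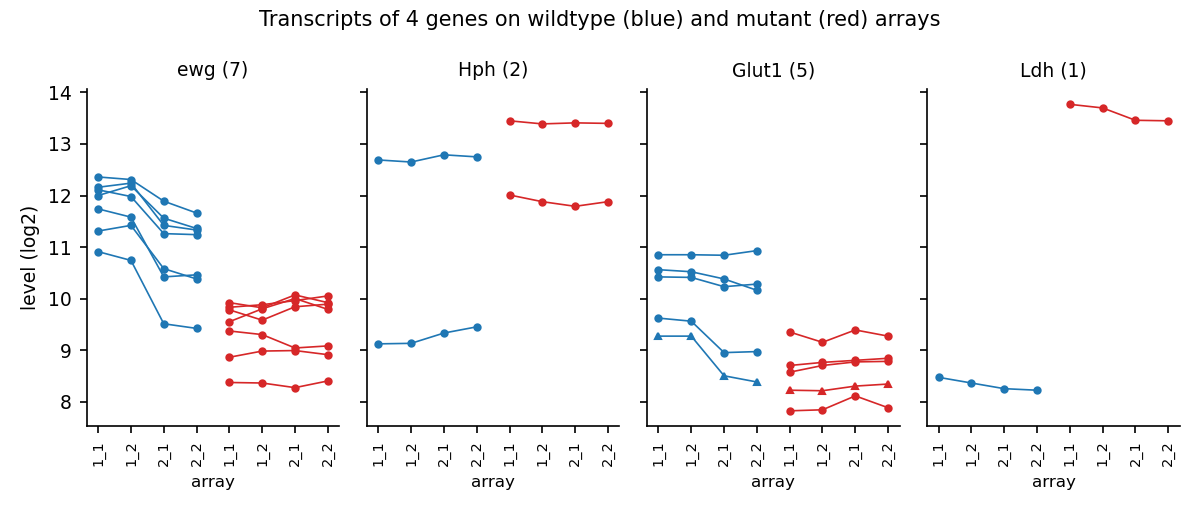
Level (log2, vertical) of every listed transcript of ewg, Hph, Glut1 and Ldh on the 4 wildtype (blue) and 4 mutant (red) arrays, each line joining the arrays of 1 transcript, with the number of transcripts in brackets and triangles for the second identifier of Glut1. Replicates have no order; ewg and Glut1 lie lower and Hph and Ldh higher on the mutant arrays in every transcript.

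Markers of other tissues also differed between the genotypes. Of 13 salivary gland markers 11 were listed, and all 11 fell, with a median of -4.91 and a summed level of 17.61 to 17.76 in wildtype against 13.24 to 13.35 in the mutant. Of 14 fat body markers 12 were listed, 10 lower, of which 6 fell, and 2 higher, with sums of 17.30 to 17.36 against 13.53 to 15.20. Muscle markers were listed for 6 of 19, 5 lower, of which 3 fell, with sums of 12.86 to 12.97 against 12 to 12.09. Haemocyte markers were listed for 9 of 14, all 9 higher, of which 5 rose, with sums of 13.67 to 14.33 against 15.50 to 15.60. None of these listed markers lay within 0.25 of the array floor on all mutant arrays. Some mutant levels did lie near the lower end of the array's range, for example 7.15 to 7.29 in Sgs5, 7.47 to 7.57 in ng3 and 7.40 to 7.60 in Obp99b. The part of RNA from these tissues in the lower levels of the respiratory genes was not tested.

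The marker lists also differed between the wildtype replicates, each by its own amount. Wildtype replicate 1 minus replicate 2 had a median of 0.39 for the 42 genes. Among listed markers the median was 1.16 for neurons and glia, 0.69 for haemocytes, 0.49 for the wing disc and 0.40 for the male germline. It was 0.15 for the salivary gland, 0.11 for muscle, -0.03 for the trachea, -0.08 for the fat body and -0.50 for the gut. Of 14 wing disc markers 6 were listed, 4 lower and 2 higher, and only wg passed limma, rising by 1.08. The largest differences were those of rn at 1.47 and en at -1.36, and hth stood at -0.93, all without passing. The wildtype replicates of rn were far apart, at 10.14 and 8.72. ap, wg and Dll, which pattern the disc, stood well above the floor in both genotypes, with ap at 13.79 ± 0.01 in wildtype and 12.92 ± 0.25 in the mutant and wg at 11.89 ± 0.17 and 12.97 ± 0.16. Trachea markers were listed for 6 of 10, 5 of which rose and 1 of which fell. Of the gut markers 4 of 10 and of the neuronal and glial markers 2 of 10 were listed, and none of these passed, with 3 lower and 1 higher gut markers and 1 lower neuronal marker at an unadjusted p under 0.05 by limma.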

How the data were processed

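Per the labels' protocols, oligo-dT primed cDNA of wing discs was labelled with Cy3 and hybridised to single-colour NimbleGen arrays. The deposited value table holds log2 levels per transcript and array, made with RMA and Partek per the submitters' processing notes, which give no versions. RMA equalises distributions, which can hide a shift shared by most genes. The authors' deposited table of 1.5-fold changes holds a ratio and a fold change, p-values and F statistics (scores). Its p-values and scores were not used. Genome build and probe design: not given in the sources used here. Probe-level signals were not used here, so signal over background is known only from the floor of the values.

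Gene names came from the authors' deposited table, updated through RefSeq (Release 6 plus ISO1 MT), which also gave arms and neighbours. The deposited log2 ratio equalled the difference over the 8 arrays within 7.8e-05. A gene was represented by its listed transcript with the highest mean, and unnamed transcripts by themselves, giving 16108 features. limma 3.58.1 in R 4.3.3 (lmFit, eBayes; two-sided) tested mutant minus wildtype with 2 averaged replicates per genotype, genotype as the only term, Benjamini-Hochberg adjustment over all features and a threshold of 0.05. The words rose and fell are kept for genes that passed. The number of arrays limits the precision, with 2 residual and 2.21 prior degrees of freedom. The step was tested on simulated data. With 2 replicates per genotype, a gene that did not pass is not shown to be unchanged. Python 3.11.15 and matplotlib 3.10.9 gave the counts and figures. A list's summed level is the log2 of the summed linear levels of its listed genes on each array.

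The members and lists were chosen with earlier results of these data known. Named members are, per complex or subunit, the 3 largest and the smallest differences, members opposite to most, those with over 1 listed transcript and the 2 nearest the 1.5-fold limit. From other lists up to 3 genes with the largest differences are named, and further genes were chosen after their values were seen. Same-numbered replicates of the genotypes were checked for pairing; across features their deviations correlated at 0.307, and with 2 replicates this does not show that the numbers pair samples. The planned search of promoters for motifs was not run, because promoter sequence was not used here. Alternatives covered the averaging, blocks, scaling, a filter on low levels, the choice of transcript, a variance trend and each replicate left out.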

Additional observations from a re-analysis of the deposited data

Results flagged for a closer look

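In 3 genes 1 mutant array stood apart from the other 3 of its group by a gap that took up nearly the whole range of the group. COX7B read 10.36 on mutant array 1_2, with the nearest other array at 10.14, a gap of 0.895 of the range. COX5B read 9.96 on the same array, with the nearest at 9.69, a gap of 0.925 of the range. ATPsynG read 9.93 on mutant array 2_2, with the nearest at 10.36, a gap of 0.892 of the range. For 4 independent values chance gives such a gap in about 1 in 20 groups, and these are 3 of 84 groups tested, or 3.571%. The 4 arrays of a group are 2 pairs of repeats, so that rate does not apply and nothing is read from it. In all 3 genes every mutant array still lay below every wildtype array.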

How the results depend on the processing

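The median difference of the 42 genes stayed between -1.09 and -0.64 over every alternative in which it was computed, and no gene changed direction in the 12 settings run gene by gene. Counts of genes passing limma moved much more. Counts are given as lower and higher over all features, then among the 42 genes, where they were 719 and 450, and 9 and 0. Averaging arrays by the second number gave 5472 and 6893, and 41 and 1. Treating 8 arrays as separate samples gave 3691 and 3935, and 39 and 1. Both treat arrays that correlated at 0.9977 or more as independent, and the lower share of calls was 44.25% and 48.40% there against 61.51%. The first number as a random block gave 1881 and 1446, and 33 lower genes of the 42. With the first number as a replicate block, a pairing that was not shown, the counts were 1036 and 736, and 20 lower genes. Quantile normalization gave 15 and 1 among the 42, and a variance trend 1099 and 727 over all features. Leaving out 1 replicate in turn gave 0 to 2380 lower and 0 to 2476 higher features, and 0 to 37 lower and 0 to 1 higher of the 42 genes. Leaving out mutant replicate 1 gave 0 calls by limma over all features (2022 at an unadjusted p under 0.05), and leaving out mutant replicate 2 gave 14 and 2. The cause of these shifts was not tested. Other settings kept the counts within 1.5 times. Settings without COX4L and without the 2 overlapping genes were added after seeing the data and gave medians of -0.88 and -0.89.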

Other observations

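Genes for the building and turnover of mitochondria were listed in small numbers. Of 16 mitochondrial aminoacyl-tRNA synthetase genes 2 were listed, TrpRS-m at -1.01 and CysRS-m at -0.59, and of 14 assembly factor genes only Sirup, a complex II assembly factor gene, at 0.66. None of these 3 passed limma, and all 3 had an unadjusted p under 0.05. Of 10 genes for mitochondrial shape and turnover 2 were listed, fzo, a fusion gene used in the testis, which fell by 0.72, and Fis1, which stood at -0.88 with its 4 listed transcripts between -0.98 and -0.88.

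Of 94 cytoplasmic ribosomal protein genes 4 were listed, all lower in the mutant. RpL22-like stood at -1.47, RpL15 at -0.86, RpL3 at -0.71 and RpS19b at -0.59. None passed limma, and 3 had an unadjusted p under 0.05. Wildtype replicate 1 stood above replicate 2 in all 4, by a median of 0.69.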
